A study of Strigamia maritima with 9 samples.

Results

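The binding sites of a pair of retrotransposon-borne protein domains, CopiaMBD1 and CopiaMBD2, were compared on native genomic DNA of the centipede *Strigamia maritima*. All 7461 peaks called for CopiaMBD1 and all 14001 called for CopiaMBD2 were used, which is 21462 of the 37836 peaks of the series. The peaks came from DNA affinity purification sequencing (DAP-seq), in which purified genomic DNA is offered to a protein made outside the cell and the DNA that stays bound is sequenced. Per the labels, DNA came from adult tissue of the strain whose genome was sequenced. Sonication broke it into pieces averaging 200 bp, adapters were ligated to them, and they were mixed with a CopiaMBD domain that had been translated in vitro as a fusion to HaloTag, a tag that attaches to beads. The bound DNA went through 20 PCR cycles. The control library, shared by both lists, was made in the same way with HaloTag alone. The protein tested was an isolated domain on naked DNA, without chromatin. There was 1 library per domain, so every comparison below describes these libraries, no test between the domains was possible, and intervals cover counting error only.

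A methyl-CpG binding domain, the MBD, is a protein fold that recognises cytosine methylated in a CpG dinucleotide on both DNA strands. In animals it is best known from proteins that carry chromatin-modifying partners to methylated DNA. Copia elements are long terminal repeat retrotransposons, which copy themselves through RNA and insert the copy elsewhere in the genome, and they do not usually encode an MBD. In invertebrates methylated CpGs are often concentrated in the bodies of genes, and the rest of the genome carries few. The numbers in the names CopiaMBD1 and CopiaMBD2 are the study's own, and the labels do not tie them to the vertebrate proteins MBD1 and MBD2. Neither genes, repeats, base sequence nor methylation at the peaks were analysed here.

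The lists rested on nearly equal depth. CopiaMBD1 peaks were called from 2239324 tags at unique positions and CopiaMBD2 peaks from 2224965, and the HaloTag-only library of 4050757 tags was sampled down to each. The redundant fraction of tags was 0.04 for CopiaMBD1 and 0.06 for CopiaMBD2. The fragment length to which the peak caller extended each tag was 145 bp for CopiaMBD1 and 140 bp for CopiaMBD2. The pileup, the number of extended fragments over a peak's summit, is therefore on almost the same scale in both lists. The product of tags and fragment length for CopiaMBD2 was 0.959 times that for CopiaMBD1, so equal coverage of a site would give CopiaMBD2 the slightly lower pileup.

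CopiaMBD2 was called at 1.88 times as many places as CopiaMBD1, yet a typical peak looked much the same in either list. The median pileup was 16 fragments for CopiaMBD1 (interquartile range 13 to 21, range 8 to 286) and 17 for CopiaMBD2 (13 to 23, range 7 to 280). The 90th percentile was 34 fragments in both lists. The authors' fold enrichment over the HaloTag-only library, within each list, had a median of 4.32 for CopiaMBD1 and 4.65 for CopiaMBD2, with 90th percentiles of 6.30 and 7.52. The surplus of CopiaMBD2 peaks was present at every pileup. CopiaMBD2 had 1.88 times as many peaks as CopiaMBD1 with under 12 fragments, 1.81 times as many with 16 to under 24, 2.76 times as many with 24 to under 32 and 1.55 times as many with 128 or more. Widths overlapped broadly too, with a median of 196 bp for CopiaMBD1 and 200 bp for CopiaMBD2. The wide end of the distribution differed, since 2.60% of CopiaMBD1 peaks (194) and 4.83% of CopiaMBD2 peaks (676) were at least 500 bp wide.

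The highest pileups in both lists were met at the same few places, and these were places where the control was high as well. Per the file headers 1 tag was kept per position. If that held for each strand and each tag was extended to the fragment length, which the headers do not spell out, a pileup could not exceed 290 for CopiaMBD1 and 280 for CopiaMBD2. CopiaMBD1 had its highest pileups on AFFK01014187 (1253 to 1694, 286 fragments), AFFK01008510 (518 to 988, 280) and AFFK01017866 (25 to 569, 276). The overlapping CopiaMBD2 peaks there had 278, 274 and 279 fragments. CopiaMBD2 itself peaked on AFFK01003161 (569 to 1265) with 280 fragments, equal to this presumed ceiling, where CopiaMBD1 had 273. Folds at these 4 sites were only 2.13 to 3.83 for CopiaMBD1 and 2.35 to 3.75 for CopiaMBD2. The control level at the summit of the 3 CopiaMBD1 peaks was 58.1, 38.7 and 68.8 times the lowest of the list. At such sites pileup was close to that ceiling in both libraries, which would leave little room for a difference between the domains. Few peaks came that close: 7 CopiaMBD1 and 11 CopiaMBD2 peaks reached 90% of the ceiling.

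Ranking by pileup and ranking by fold enrichment picked out different sites. Of the 500 CopiaMBD1 peaks of highest pileup, 404 (80.8%) overlapped one of the 500 CopiaMBD2 peaks of highest pileup, and 398 (79.6%) of the latter overlapped one of the former. Among the 500 of highest fold, 164 (32.8%) of CopiaMBD1 and 161 (32.2%) of CopiaMBD2 peaks did so. The local control level, recovered from pileup and fold, differed between these tops. Relative to the lowest of each list, its median was 9.68 for CopiaMBD1 and 10.1 for CopiaMBD2 in the top 500 by pileup, and 1.08 and 1.12 in the top 500 by fold. Even so, nearly all of the 500 CopiaMBD1 peaks of highest fold, 472 (94.4%), overlapped some CopiaMBD2 peak, and 449 (89.8%) of the corresponding CopiaMBD2 peaks overlapped some CopiaMBD1 peak. The denominator of the fold comes from the same HaloTag-only library in both lists, but only down to a floor. This lowest level, 1.87 fragments for CopiaMBD1 and 1.79 for CopiaMBD2, equals each list's own tags times fragment length over the effective genome size. For most of the top 500 by fold the denominator was thus at or near a library-wide average.

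Whether a site was found for the other domain depended on its pileup. In all, 5700 CopiaMBD1 peaks (76.4%) and 5620 CopiaMBD2 peaks (40.1%) overlapped a peak of the other list by at least 1 bp. With under 12 fragments, 55.2% of CopiaMBD1 peaks (exact 95% interval 51.9 to 58.4) had a CopiaMBD2 peak and 16.6% of CopiaMBD2 peaks (14.8 to 18.4) had a CopiaMBD1 peak. With 16 to under 24 fragments the shares were 83.3% (81.8 to 84.7) and 41.7% (40.3 to 43.1), and with 64 to under 128 they were 97.1% (94.1 to 98.8) and 84.8% (80.6 to 88.3). Every CopiaMBD1 peak with 128 or more fragments, 78 of 78, had a CopiaMBD2 peak, and 119 of 121 such CopiaMBD2 peaks had a CopiaMBD1 peak. At each pileup below 128 a CopiaMBD1 peak was thus more often matched than a CopiaMBD2 peak of equal pileup, in lists of unequal length. The control level rose along the same scale, from a median of 1.01 and 1.11 times the lowest with under 12 fragments to 26.4 and 20.2 times with 128 or more, and its part in the result was not tested.

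**Figure D1:**
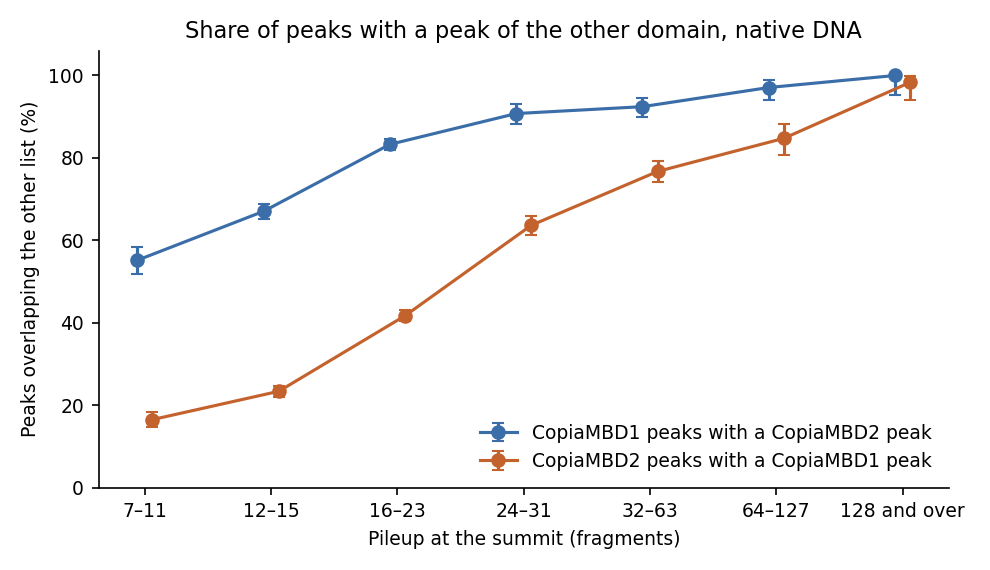
Share of peaks that overlap a peak of the other domain (percent, y axis) in classes of pileup at the summit (fragments, x axis). Points are shares, bars are exact 95% intervals; the CopiaMBD1 line runs from 55.2% to 100% and the CopiaMBD2 line from 16.6% to 98.3%, below it in every class.

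Along fold enrichment the match rose later. With each list divided by fold into 10 groups of equal size, a CopiaMBD2 peak was found for 76.0% of CopiaMBD1 peaks in the lowest group, 69.7% in the fifth and 93.3% in the highest. For CopiaMBD2 the shares were 30.5% in the lowest group, 24.4% in the second, 31.2% in the fifth and 77.7% in the highest. The lowest group lay at high control, with medians of 3.23 and 2.80 times the lowest of each list. Where the control was at its lowest, 67.1% of CopiaMBD1 and 33.2% of CopiaMBD2 peaks were matched, against 90.4% and 62.6% where it was at least 3 times the lowest.

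The 1761 CopiaMBD1 peaks and 8381 CopiaMBD2 peaks without a partner were lower and narrower than those with one. Their median pileup was 14 for CopiaMBD1 against 17 at matched peaks, and 15 for CopiaMBD2 against 21. Median width was 170 against 208 bp and 180 against 249 bp. A peak of the narrowest width that the caller reports, equal to the fragment length, made up 18.8% of unmatched and 6.40% of matched CopiaMBD1 peaks, and 11.7% and 3.26% of CopiaMBD2 peaks. A match needed only 1 bp of overlap, so the rule itself favours wider peaks, which bears on both measures of width. About equal shares of both unmatched sets coincided with a peak of the related domain CopiaMBD3, 48.0% (45.7 to 50.4) for CopiaMBD1 and 51.9% (50.8 to 53.0) for CopiaMBD2. Of matched peaks, 83.8% and 83.7% did.

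Some sites of one domain without a peak of the other were strong. By pileup they were again sites of high control. The 3 highest for CopiaMBD1 were on AFFK01015625 (17837 to 18000, 105 fragments), AFFK01002997 (569 to 918, 104) and AFFK01019939 (11433 to 11597, 92), at folds of 2.03, 3.26 and 3.19. For CopiaMBD2 they were on AFFK01011411 (486 to 642, 159 fragments), AFFK01019792 (796 to 1101, 134) and AFFK01017577 (24 to 377, 126), at folds of 2.39, 2.20 and 1.66. Control levels at these 6 summits were 15.1 to 42.0 times the lowest. The peak on AFFK01011411 lay 64 bp from a CopiaMBD1 peak and the one on AFFK01019939 lay 160 bp from a CopiaMBD2 peak.

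Sites with a high fold and no partner, chosen after their values were seen, had control at or near its lowest. The highest for CopiaMBD1 was on AFFK01010340 (751 to 969), with 37 fragments and a fold of 13.2. CopiaMBD3 had 61 fragments and a fold of 23.4 at that site, while no CopiaMBD2 peak was listed on that contig. The highest for CopiaMBD2 was on AFFK01006301 (260 to 466), with 56 fragments and a fold of 20.1. CopiaMBD3 had 39 fragments there and no CopiaMBD1 peak was listed on the contig. Next came JH430992 (66556 to 66839), with 41 fragments for CopiaMBD2 and 45 for CopiaMBD3. Sites found for a single domain also existed. CopiaMBD2 alone had 37 fragments at a fold of 13.6 on JH429704 (4849 to 5088), a scaffold without a listed CopiaMBD1 peak. CopiaMBD1 alone had 26 at a fold of 8.96 on JH431519 (17479 to 17761), though a CopiaMBD2 peak lay 624 bp away. A lack of a called peak is not a measured level of 0, and the pileup of the other domain at these sites was not analysed here.

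Where the lists overlapped, the summits mostly lay well within a fragment length of each other. The overlaps formed 5817 pairs, of which 5226 (89.8%) joined peaks with a single partner. The median distance between summits was 32 bp (exact 95% interval of the median 30 to 33, interquartile range 12 to 74). Summits were at most 10 bp apart in 22.2% of pairs, at most 50 bp in 64.1% and at most 100 bp in 81.6%. They were more than 200 bp apart in 9.20% of pairs, and at the same base in 70 pairs. Neither domain lay to one side: the CopiaMBD2 summit was at the higher coordinate in 49.0% of pairs and at the lower in 49.8%, with a median signed offset of 0 bp (-1 to 1). Strand and sequence features that could orient a site were not used.

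**Figure D2:**
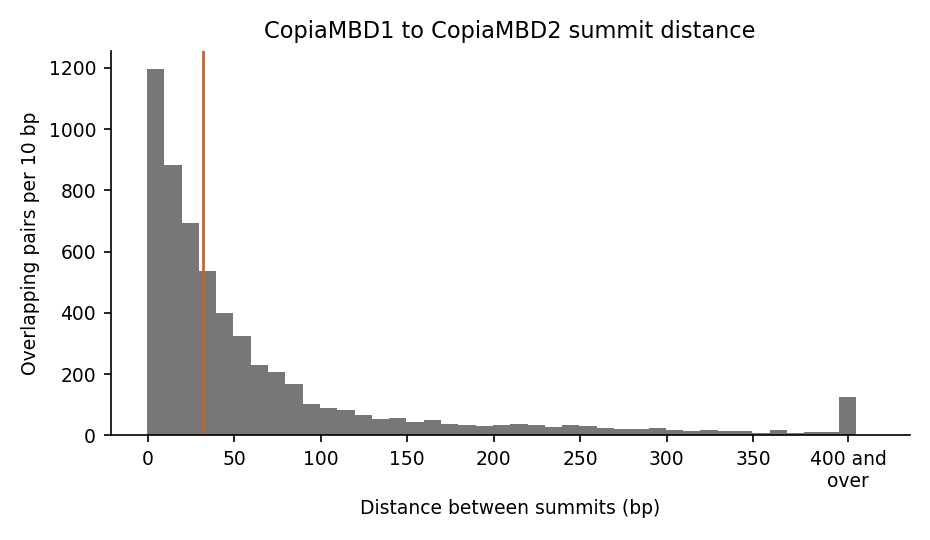
Number of overlapping pairs (y axis, per 10 bp) by distance between the CopiaMBD1 and CopiaMBD2 summits (bp, x axis; the last bar collects all larger distances). The vertical line marks the median of 32 bp, and the count is highest in the first bar and falls outward before the collecting bar.

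The distance was shorter where pileup was higher. Pairs were sorted by the geometric mean of both pileups. The median distance was 59 bp below 12 fragments, 36 bp from 16 to under 24, 16 bp from 32 to under 64 and 5 bp from 128 on. At AFFK01014187, AFFK01017866 and AFFK01008510, the pairs with the highest lower pileup and sites of high control, summits were 3, 4 and 1 bp apart. From the lowest to the highest of these classes, the median control at the CopiaMBD1 summit rose from 1.01 to 23.7 times the lowest. The share of pairs on contigs rose from 36.1 to 89.8%. The part of control, sequence kind and counting precision in the shorter distance was not tested.

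In each of the 3 pairs with the largest distances, the peak of one list was much broader than that of the other. On AFFK01020418 a CopiaMBD2 peak of 1946 bp (1809 to 3754) took in the whole of a CopiaMBD1 peak of 170 bp (3542 to 3711), with summits 1443 bp apart. On JH432163 the broad peak was that of CopiaMBD1, 1544 bp (21247 to 22790) against 518 bp for CopiaMBD2, and the summits were 1335 bp apart. On JH430368 it was CopiaMBD2 again, 1456 against 191 bp, at 1033 bp. A CopiaMBD2 peak spanned at least 2 CopiaMBD1 peaks in 186 cases, and a CopiaMBD1 peak spanned at least 2 CopiaMBD2 peaks in 113.

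At overlapping sites CopiaMBD2 had the higher pileup and the wider peak in most pairs. CopiaMBD1 pileups had a median of 17 (interquartile range 14 to 23) and CopiaMBD2 pileups a median of 21 (16 to 30). The median ratio of CopiaMBD2 to CopiaMBD1 was 1.22, or 0.29 on the log2 scale (0.28 to 0.30, interquartile range 0 to 0.58). CopiaMBD2 was higher in 71.5% of pairs (70.4 to 72.7), CopiaMBD1 in 22.2%, and both had equal pileup in 6.24%. The ranges of the lists overlapped almost fully, and the shift shows in the ratio within pairs. With pileups divided by tags times fragment length, CopiaMBD2 was higher in 78.4% of pairs.

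Single pairs seldom stood clear of counting error. For the median pileups, 17 and 21, CopiaMBD2 held 55.3% of the fragments with an exact 95% interval of 38.3 to 71.4%, which takes in equality. The interval lay above 50% in 556 pairs (9.56%) and below it in 25 (0.430%). Among the 993 pairs with at least 64 fragments in both lists together, it lay above 50% in 274 (27.6%) and below in 16 (1.61%). Pileups are counted at each list's own summit, the highest point of its peak, and fragments came through PCR.

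**Figure D3:**
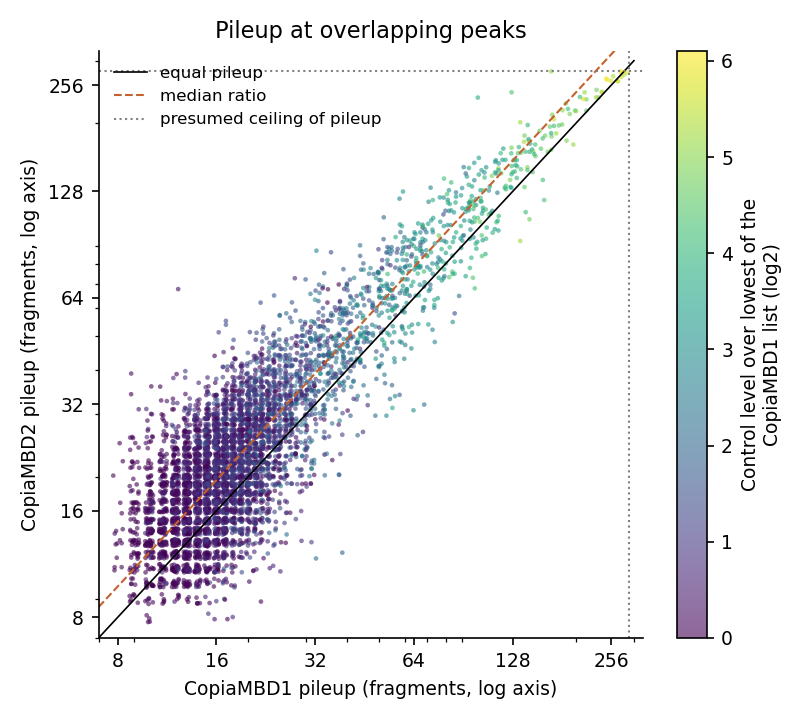
Pileup of CopiaMBD2 (y axis) against CopiaMBD1 (x axis) at 5817 overlapping pairs, in fragments on log axes, with colour for the control level at the CopiaMBD1 summit and small random shifts to part equal values. Most points lie above the solid line of equal pileup and around the dashed line of the median ratio of 1.22, and the points near the dotted presumed ceilings of 290 and 280 are those with the highest control.

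The ratio was largest at middle pileups. From 24 to under 32 fragments (geometric mean of the pair), median pileups were 23 for CopiaMBD1 and 32 for CopiaMBD2, a median ratio of 1.36. Below 12, near the lowest pileups of both lists, it was 1.09, and from 128 on, with median pileups of 149.5 and 176, it was 1.14. CopiaMBD2 reached at least 1.5 times the CopiaMBD1 pileup in 1489 of all pairs, or 25.6%, and CopiaMBD1 reached 1.5 times the CopiaMBD2 pileup in 142, or 2.44%. Against that background, the share favouring CopiaMBD2 was 37.4% from 24 to under 32 fragments, 5.78% below 12 and 3.06% from 128 on. A difference of at least 2 times was found in 312 pairs (5.36%) toward CopiaMBD2 and in 15 (0.258%) toward CopiaMBD1. The ratio was alike on contigs (1.24) and on scaffolds (1.20), and at the 1422 pairs where both controls were under 1.2 times their lowest (1.21).

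The pairs most uneven toward CopiaMBD2 were offset as well as uneven. On JH432155, CopiaMBD1 had 12 fragments (13659 to 13833) and CopiaMBD2 had 68 (13773 to 14118), with summits 294 bp apart. On AFFK01014145 the pileups were 9 and 39 at summits 360 bp apart, and on AFFK01013602 they were 9 and 34 at 187 bp. Toward CopiaMBD1, the site on AFFK01017859 (891 to 1109) had 39 fragments against 12 for CopiaMBD2 (910 to 1066), with summits only 12 bp apart. On JH430111 (4075 to 4344) CopiaMBD1 had 22 fragments and CopiaMBD2 had 9, with summits 18 bp apart. On AFFK01001127 it was 32 against 12, at 454 bp.

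Among those 1422 pairs, the 3 of highest lower pileup, picked out after their values were seen, had more fragments in CopiaMBD2. AFFK01002349 had 35 fragments for CopiaMBD1 (117 to 330) and 62 for CopiaMBD2 (109 to 319). AFFK01005768 had 35 and 44, with both peaks 192 bp wide, and AFFK01019298 had 34 and 55. Their summits lay 38, 23 and 6 bp apart.

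CopiaMBD2 peaks were wider by a median of 33 bp (30 to 35, interquartile range -10 to 107), although the narrowest width possible was 5 bp less for CopiaMBD2. They were the wider in 68.6% of pairs. The CopiaMBD1 peak lay wholly inside the CopiaMBD2 peak in 38.9% of pairs and the reverse held in 10.2%. Median widths at overlapping peaks were 209 bp for CopiaMBD1 and 255 bp for CopiaMBD2. Median widths were 177.5 and 186 bp below 12 fragments and 235 and 299 bp from 24 to under 32. They were 217 and 269 bp from 32 to under 64, 237 and 270.5 bp from 64 to under 128, and 271 and 330 bp from 128 on, so width did not climb steadily with pileup.

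The related domain CopiaMBD3 gave like distances on the same DNA. Its summits lay a median of 33 bp from CopiaMBD1 summits (32 to 35, 5722 pairs) and 33 bp from CopiaMBD2 summits (32 to 34, 9321 pairs), against 32 bp between CopiaMBD1 and CopiaMBD2. The median pileup ratio over CopiaMBD1 was 1.38 for CopiaMBD3 and 1.22 for CopiaMBD2. All 3 lists share the HaloTag-only library, and these differences were not tested.

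Both domains had more peaks per Mb on shorter sequences, and CopiaMBD2 outnumbered CopiaMBD1 to about the same extent on each kind. The assembly consists of scaffolds (names in JH) and smaller contigs (names in AFFK). Each sequence was taken to span from its first base to the end of its last peak in any list, which is a lower bound on its length. Contigs held 228 CopiaMBD1 and 406 CopiaMBD2 peaks per Mb. On scaffolds spanning 10 to under 30 kb the densities were 103 and 208 per Mb, and on those of 300 kb or more they were 16.0 and 31.6 per Mb. The ratio of CopiaMBD2 to CopiaMBD1 peaks was 1.78 on contigs and between 1.83 and 2.02 in the 5 span classes of scaffolds. Matches were more frequent on contigs, where 81.5% of CopiaMBD1 and 45.1% of CopiaMBD2 peaks had a partner, than on scaffolds, with 73.0% and 37.1%. Because only sequences with a peak were measured, the density of a short sequence is high by construction.

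**Figure D4:**
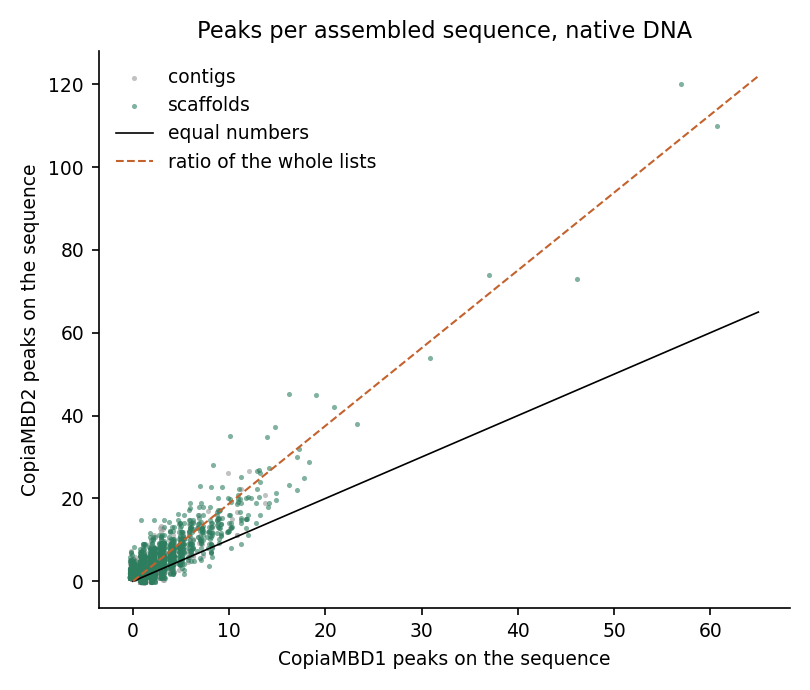
Number of CopiaMBD2 peaks (y axis) against CopiaMBD1 peaks (x axis) on each of 5127 assembled sequences with a peak of either, with small random shifts to part equal values. Most sequences with many peaks lie above the solid line of equal numbers and near the dashed line, the ratio of 1.88 between the whole lists.

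Peaks of either domain occurred on 5127 sequences. Both domains had peaks on 3135 of them, CopiaMBD2 alone on 1737 and CopiaMBD1 alone on 255. No sequence of the last kind held more than 3 CopiaMBD1 peaks, and CopiaMBD2 without CopiaMBD1 reached 8. The 3 sequences with the most peaks were JH432211 (57 CopiaMBD1 and 120 CopiaMBD2 peaks up to position 469037), JH431789 (61 and 110, up to 719418) and JH431830 (46 and 73, up to 386324). Of their CopiaMBD1 peaks, 48, 46 and 40 overlapped a CopiaMBD2 peak.

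Among the 153 sequences with at least 20 peaks of both lists together, CopiaMBD1 made up a median of 36.7% (interquartile range 32.5 to 40.9), near the 34.8% of all peaks. CopiaMBD2 had more peaks on 149 of them. The balance leaned most toward CopiaMBD1 on JH432095, with 11 CopiaMBD1 and 9 CopiaMBD2 peaks, and on JH429615, with 12 and 11, while AFFK01018380 held 11 of each. It leaned most toward CopiaMBD2 on JH431410, with 10 and 35, JH432106, with 8 and 28, and JH429686, with 7 and 23. The exact 95% intervals of the CopiaMBD1 share were 31.5 to 76.9% on JH432095 and 11.2 to 37.1% on JH431410. The interval of each of the 153 sequences took in 34.8%. These intervals treat peaks as independent, but each overlapping pair adds a peak to both lists, which makes the intervals too wide. They therefore cannot tell whether any sequence stood apart in its balance of the domains.

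On long sequences CopiaMBD1 was found mostly in stretches that also held CopiaMBD2, while CopiaMBD2 stood alone nearly as often as with CopiaMBD1. The 279 sequences spanning at least 100 kb were divided into 7662 windows of 10 kb, of which 78.8% held no summit of either domain. Both occurred in 764 windows, CopiaMBD2 alone in 696 and CopiaMBD1 alone in 161. A CopiaMBD1 summit was found in 2.60% of windows without CopiaMBD2, in 34.4% of those with 1 CopiaMBD2 summit, in 68.1% of those with 2 and in 94.0% of the 83 windows with 5 or more. The mean number of CopiaMBD1 summits per window rose along this scale from 0.0272 to 2.87. On scaffolds 73.0% of CopiaMBD1 peaks overlapped a CopiaMBD2 peak, which mostly puts a summit of each domain in the same window. Part of the rise with CopiaMBD2 summits thus came by construction, and no background was set for it.

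Part of the sites found for one domain alone lay beside a site of the other. Of CopiaMBD1 peaks without a CopiaMBD2 peak, 37.8% (35.5 to 40.1) had one within 1 kb, edge to edge, and 12.4% within 200 bp. Of CopiaMBD2 peaks without a CopiaMBD1 peak, 24.0% (23.1 to 25.0) had one within 1 kb and 6.35% within 200 bp. These shares depended on how peaks were chosen and matched. Within 1 kb they were 12.8 and 5.50% with a −log10 q of at least 10 in both lists. They were 62.8 and 32.9% when a match needed overlap of 50% of each peak. That rise came by construction, since peaks with a smaller overlap then counted as unmatched and as lying within 1 kb. Under the main rule, the sequence held no peak of the other domain at all for 15.6% of unmatched CopiaMBD1 and 27.7% of unmatched CopiaMBD2 peaks. The longer list offers more neighbours, and both kinds of unmatched peak more often had a CopiaMBD2 peak nearby than a CopiaMBD1 peak: another CopiaMBD1 peak lay within 1 kb of 23.9% of the unmatched CopiaMBD1 peaks, and another CopiaMBD2 peak within 1 kb of 41.7% of the unmatched CopiaMBD2 peaks.

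**Figure D5:**
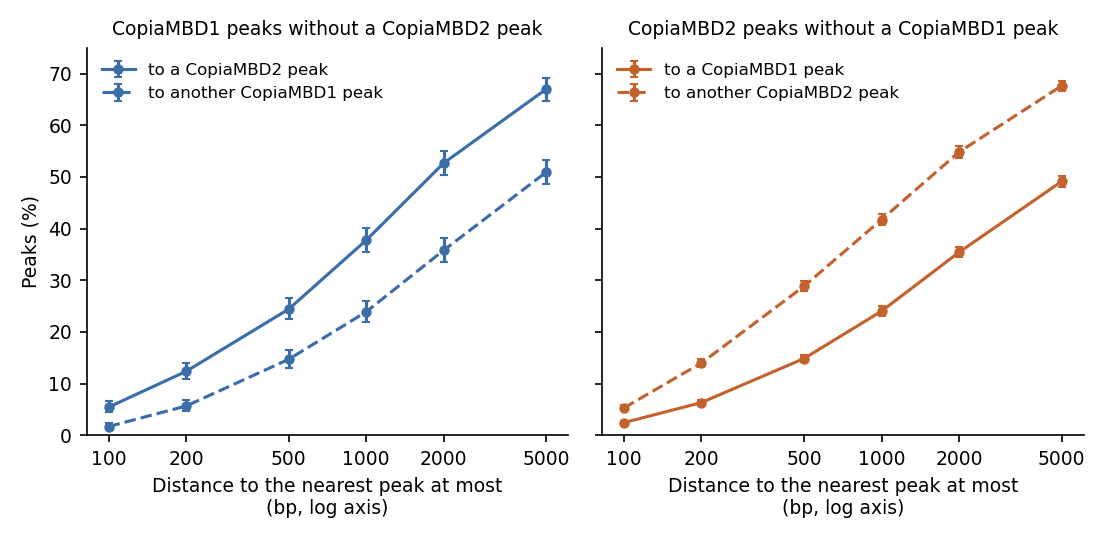
Share of peaks without a partner (percent, y axis) that have a peak of the other domain (solid) or of their own list (dashed) within a given distance (bp, log x axis), with exact 95% intervals. Left, CopiaMBD1; right, CopiaMBD2; at 1000 bp the solid lines stand at 37.8% and 24.0%, and the dashed lines at 23.9% and 41.7%.

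The neighbour was itself a shared site about as often as any peak of its list. Of the 665 unmatched CopiaMBD1 peaks with a CopiaMBD2 peak within 1 kb, the nearest one overlapped another CopiaMBD1 peak in 270 cases (40.6%), against 40.1% of all CopiaMBD2 peaks. Of the 2014 unmatched CopiaMBD2 peaks with a CopiaMBD1 peak within 1 kb, the nearest one overlapped another CopiaMBD2 peak in 1558 (77.4%), against 76.4% of all CopiaMBD1 peaks. Lying beside the other domain went with little difference in height: the median pileup of unmatched CopiaMBD1 peaks was 14 fragments within 1 kb of a CopiaMBD2 peak, beyond it, and on sequences without one, and that of unmatched CopiaMBD2 peaks was 15 in all 3 positions.

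In 520 cases an unmatched peak of each domain lay side by side within 1 kb, with a median gap of 428 bp (interquartile range 177 to 673). The order along the sequence was even, CopiaMBD2 following CopiaMBD1 in 259 (49.8%). The pair with the highest lower pileup was on AFFK01000745, with 63 CopiaMBD1 fragments (210 to 419) and 84 CopiaMBD2 fragments (704 to 957). Next were AFFK01019939, with 92 CopiaMBD1 fragments (11433 to 11597) and 62 CopiaMBD2 fragments (11757 to 11914), and AFFK01008580, with 37 CopiaMBD1 (940 to 1105) and 40 CopiaMBD2 fragments (680 to 840). At each of these 3 places CopiaMBD3 had a peak on the CopiaMBD1 site and none on the CopiaMBD2 site, but this did not hold for the whole set. CopiaMBD3 had a peak on both sites in 152 of the 520 cases and on at least 1 of them in 389. Of all unmatched peaks within 1 kb of the other domain, 52.5% of CopiaMBD1 and 57.1% of CopiaMBD2 peaks had a CopiaMBD3 peak. At the 3 places named here, control was raised at both sites, from 3.36 to 15.1 times the lowest of the list.

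Chaining all peaks of both lists with gaps of up to 1 kb gave 11167 clusters. CopiaMBD2 stood alone in 5261 of them (47.1%), CopiaMBD1 alone in 1044 (9.35%), and both occurred in 4862 (43.5%), which held 14292 of the 21462 peaks. Large clusters were nearly always mixed, 567 of the 570 with at least 5 peaks and all 62 with at least 10. Each overlapping pair adds a peak of both lists to its cluster. Large clusters thus tend to be mixed, and those of a single domain small, by construction, and no background was set for this. The largest was on AFFK01021150 (1666 to 11257), with 9 CopiaMBD1 and 14 CopiaMBD2 peaks, followed by AFFK01016938 (357 to 10289), with 8 and 13. Clusters of a single domain stayed small. The largest of CopiaMBD2 held 6 peaks, on AFFK01020556 (7612 to 10580) and on JH431831 (154383 to 157612), and the largest of CopiaMBD1 held 3, on AFFK01006459 (165 to 1197) and on JH429753 (21997 to 23644).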

How the data were processed

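Per the file headers, the authors called peaks per library with MACS2 2.1.0.20150731 at a q-value of 0.05 against the HaloTag-only library, sampling the larger library down, keeping 1 tag per position and setting an effective genome size of 173.6 Mb. In the deposited lists, pileup is a coverage signal, fold enrichment a ratio to the local control, and significance is given as −log10 p and −log10 q. Bowtie, Bowtie2, BS-Seeker2, fastp and CASAVA 1.8.2 appear, without a role, in the submitters' processing notes. The build was not given in the sources used here; positions are the files' own, 1-based.

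Peaks sharing 1 bp or more were paired, in Python 3.11.15 (pandas 2.3.3, numpy 2.4.6, scipy 1.17.1, matplotlib 3.10.9). The control level at a summit was recovered as (pileup + 1) / fold − 1. Shares carry exact Clopper-Pearson 95% intervals, and medians exact order-statistic 95% intervals, both treating neighbouring peaks as independent. Overlap and distance functions were checked on simulated lists. Sites were named by rule: the 3 highest pileups, matched and unmatched, the 3 most uneven and most distant pairs, the 3 highest side-by-side pairs, and the sequences with the most peaks or the most extreme balance. Members and lists were chosen with earlier results of these data known. The labels name no molecular identifiers, so intervals treat copies as molecules. Alternatives changed the overlap rule, thresholds, list length, sequences and control limit, and further ones were added after seeing the data.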

Additional observations from a re-analysis of the deposited data

Results flagged for a closer look

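Amplified-DNA peaks, a measurement that the comparisons above do not use, were found at some native sites in numbers above 3, the limit that a count of 0 allows. That limit does not tell whether the overlap exceeds what position alone would give, which was not tested. The amplified-DNA lists held 358 CopiaMBD1 and 133 CopiaMBD2 peaks. Native peaks covered 0.981% of the effective genome size for CopiaMBD1 and 1.96% for CopiaMBD2. DNA copied by PCR keeps no methylation, and its peaks were called against a HaloTag-only library on amplified DNA. CopiaMBD1 had an amplified-DNA peak at 14 of 5700 native peaks matched by CopiaMBD2 (0.246%, exact 95% interval 0.134 to 0.412) and at 4 of 1761 unmatched ones (0.227%, 0.0619 to 0.581). CopiaMBD2 had one at 17 of 5620 matched peaks (0.302%, 0.176 to 0.484) and at 10 of 8381 unmatched ones (0.119%, 0.0572 to 0.219). The differences between matched and unmatched peaks were not tested.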

How the results depend on the processing

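At overlapping peaks CopiaMBD2 had the higher median pileup and the larger median width under every alternative run for them, and its list was the longer under each except equal lists. Over 81 alternative values, 27 lay within the interval of the main value (for the ratio of peak numbers, within 1.5 times) and 54 did not. The rules of 50% overlap and of summits at most 100 bp apart change only the pairing. Under them the ratio of peak numbers stayed 1.88 by construction, and these values are among the 27. The sizes of the shares depended on the settings. The values below give, in this order, the share of CopiaMBD1 peaks with a CopiaMBD2 peak, the reverse share, and the share of unmatched CopiaMBD1 and of unmatched CopiaMBD2 peaks with a peak of the other domain within 1 kb, against 76.4, 40.1, 37.8 and 24.0%. Requiring overlap of 50% of each peak gave 60.5, 32.2, 62.8 and 32.9%, and summits at most 100 bp apart gave 63.7, 33.9, 59.6 and 31.2%. Under both rules the shares within 1 kb rose by construction. Peaks that overlapped the other list but failed the rule counted as unmatched and as within 1 kb. A −log10 q of at least 10 gave 78.2, 26.8, 12.8 and 5.50%. A fold of at least 5 gave 62.8, 23.0, 22.5 and 8.90%. Equal numbers of peaks per list gave 55.9, 54.1, 26.1 and 25.4%. Scaffolds alone gave 73.0, 37.1, 37.6 and 25.1%, and control under 3 times the lowest gave 69.6, 35.0, 36.0 and 22.2%. With a pileup of at least 11 the last share was 23.1%. On sequences with both domains, an alternative chosen after seeing the data, the first pair was 79.3 and 48.1%.

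The median summit distance of 32 bp became 26 bp at 50% overlap, 23 bp with summits at most 100 bp apart (by construction), 13 bp at a −log10 q of at least 10, 21 bp at a fold of at least 5, 28 bp with equal lists, 38 bp on scaffolds, 36 bp at low control and 29 bp for single partners (added after seeing the data). The median log2 pileup ratio of 0.29 became 0.26 at 50% overlap, 0.27 at a −log10 q of at least 10, 0.32 at a fold of at least 5, 0.41 with equal lists, 0.26 on scaffolds and, added after seeing the data, 0.35 with pileups divided by tags times fragment length. Equal lists kept all CopiaMBD1 peaks but only the CopiaMBD2 peaks of highest −log10 q, a choice that raises the pileup ratio by construction. The ratio of peak numbers rose from 1.88 to 2.89 at a −log10 q of at least 10. Equal lists give no such ratio. The causes of these shifts were not tested where none is named. No paired analysis was possible because each domain had 1 library. Depth limits single sites: a median pileup of 17 against 21 leaves a difference undetectable.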
